A study of Homo sapiens with 12 samples.

Results

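The histone mark H3K27ac, an acetylated lysine of histone H3 found at promoters and enhancers in use, was examined around GATA2, GATA3 and GATA6 in 5 human cancer cell lines. The members were all deposited H3K27ac peaks of the 8 untreated libraries that had at least 1 base within 100 kb of either end of 1 of these genes, in hg19 positions. There were 58 such peaks among 224362 in the 8 lists, with 26 at GATA2, 9 at GATA3 and 23 at GATA6. When overlapping peaks of the 8 lists were merged, they formed 22 of 70648 regions. The positions of the genes chose the peaks, and no measured value did.

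The lines were Ishikawa, from endometrial carcinoma (2 libraries), the squamous lines HCC95, from lung (1), and BICR31, from head and neck (1), and the lung adenocarcinoma lines H358 (2) and H2009 (2). All were grown in the same medium and carry the label of no treatment, and all libraries were made with 1 antibody. The BICR31 sample is labelled as lung adenocarcinoma, but the series' design description calls it a head and neck squamous line, and that was followed here. Whether the replicates came from separate cultures is not in the labels, and the p-values therefore reflect the spread among libraries alone, possibly a technical one. HCC95 and BICR31 had no replicate. The other 4 libraries of H2009, whose labels read e3KRAB1, e3KRAB2, Empty and Control, had 0 peaks in the windows of the 3 genes, in lists of 1375 to 3250 peaks. With lists that short a peak there could be missed, so they were not compared.

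GATA factors are zinc finger proteins that bind DNA at the sequence from which they take their name, and they act as regulators of cell identity. GATA2 is needed in blood stem cells and, in the endometrium, works with the progesterone receptor. GATA3 is known from T cells, breast luminal cells and the urothelium, and GATA6 from the heart, the gut endoderm and the lung epithelium. Each of the 3 genes has an antisense RNA gene at its start, GATA2-AS1, GATA3-AS1 and GATA6-AS1 in RefSeq. Chromatin immunoprecipitation does not tell strands, so a peak at such a start belongs to both genes of the pair.

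GATA2 lies at chr3:128198270-128212028 on the minus strand, GATA3 at chr10:8096667-8117164 and GATA6 at chr18:19749404-19782491, both on the plus strand. Peaks within 2 kb of the 5′ end of the gene were called promoter peaks and all others distal. RefSeq lists 2 starts for GATA2, 6 for GATA3 and 1 for GATA6. The 250 bases before each GATA2 start and before the GATA6 start are shown because peaks were found near the GATA6 start and inside GATA2 in 7 of the 8 libraries each. Positions of the sequences are those of GRCh38.p14 and were not matched to the peaks, which are in hg19. CpG dinucleotides (CG, the same on both strands) are in capitals, since starts rich in CpG are a common class of promoter.
GATA2 outer start, chr3:128493202-128493451, minus strand: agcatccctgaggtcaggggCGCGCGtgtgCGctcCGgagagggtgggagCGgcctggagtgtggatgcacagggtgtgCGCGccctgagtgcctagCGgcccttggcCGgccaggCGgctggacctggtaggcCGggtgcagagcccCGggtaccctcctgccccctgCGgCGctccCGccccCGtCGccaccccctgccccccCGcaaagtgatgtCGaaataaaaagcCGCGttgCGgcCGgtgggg
GATA2 inner start, chr3:128488531-128488780, minus strand: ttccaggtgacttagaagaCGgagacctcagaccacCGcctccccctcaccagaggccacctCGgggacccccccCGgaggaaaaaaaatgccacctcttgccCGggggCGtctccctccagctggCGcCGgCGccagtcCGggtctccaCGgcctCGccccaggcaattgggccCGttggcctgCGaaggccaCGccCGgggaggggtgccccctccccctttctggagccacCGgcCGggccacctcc
GATA6 start, chr18:22169339-22169588, plus strand: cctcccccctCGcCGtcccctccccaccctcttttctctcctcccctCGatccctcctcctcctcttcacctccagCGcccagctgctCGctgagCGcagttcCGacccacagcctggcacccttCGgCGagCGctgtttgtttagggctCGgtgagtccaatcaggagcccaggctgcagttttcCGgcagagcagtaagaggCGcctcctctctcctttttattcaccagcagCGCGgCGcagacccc

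These 3 stretches held 24, 18 and 16 CpG dinucleotides, against a median of 11 over 35116 RefSeq promoters of the same length, of which 93.9% held at least 1. At least as many CpG dinucleotides were held by 23.7%, 36.8% and 41.0% of those promoters, in the same order. The 6 GATA3 starts held from 4 to 30. The binding sequence of the family, searched on both strands as AGATAA, its variant AGATAG, the form TGATAA or the form TGATAG, was in none of the 9 stretches and in 22.3% of all promoters. These are descriptions of the letters only.

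GATA2 was the gene with the most peaks, and none of them lay within 2 kb of its 5′ end, the outer start. Of its 8 regions, those with peaks in 3 or more libraries were inside the gene, just upstream of it, and about 60 kb from the 5′ end beyond the other end of the gene.

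The widest region was inside the gene, at chr3:128205737-128209319, from 2.71 to 6.29 kb downstream of the 5′ end. In Ishikawa it was 1 broad peak per library, of 3583 and 2811 bp. Their scores of 388 and 478 stood at percentiles 91.3 and 94.2 of the values in their own lists, and their widths at percentiles 94.97 and 95.53. BICR31 had a 1416 bp peak there with a fold enrichment of 3.48 (percentile 30.4), and HCC95 a 292 bp peak with 3.69 (44.2). H358 replicate 1 had a pair of peaks with fold enrichments of 3.91 and 4.45 (percentiles 9.04 and 22.2), and replicate 2 a pair with 5.01 and 6.86 (41.0 and 80.1). H2009 replicate 2 had a pair with 3.77 and 4.18 (6.83 and 15.6), and replicate 1 had no peak. The Ishikawa percentiles rank a score and the others a fold enrichment, which are different measures and do not compare strength between lines. Within their own lists, the gene body peaks ranked near the top by value in both Ishikawa libraries. They ranked below the middle in every other list that had them, except for the stronger peak of H358 replicate 2. By width they stood at percentile 80.2 in BICR31, 3.79 in HCC95, 31.0 and 89.6 in H358 replicate 1, 54.4 and 66.1 in H358 replicate 2, and 6.24 and 16.8 in H2009 replicate 2.

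The narrow peaks of H358 and H2009 split this region the same way in the 3 libraries that had it. Their summits lay at 3.79 and 4.69 kb from the 5′ end in H358 replicate 1, at 3.77 and 4.94 kb in H358 replicate 2, and at 3.79 and 4.77 kb in H2009 replicate 2. The gap between each pair fell inside the broad Ishikawa peaks, which had no gap. Peak calling differed between these lists, so for a gap in 1 form of list and none in another, line and peak calling cannot be told apart. In GRCh38.p14 the inner GATA2 start lies 4.67 kb downstream of the outer one, in a gene of 13.8 kb in both builds, and that distance falls within the 2.71 to 6.29 kb spanned by the gene body region. The 10 peaks of this region are therefore distal only with respect to the outer start.

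**Figure D1:**
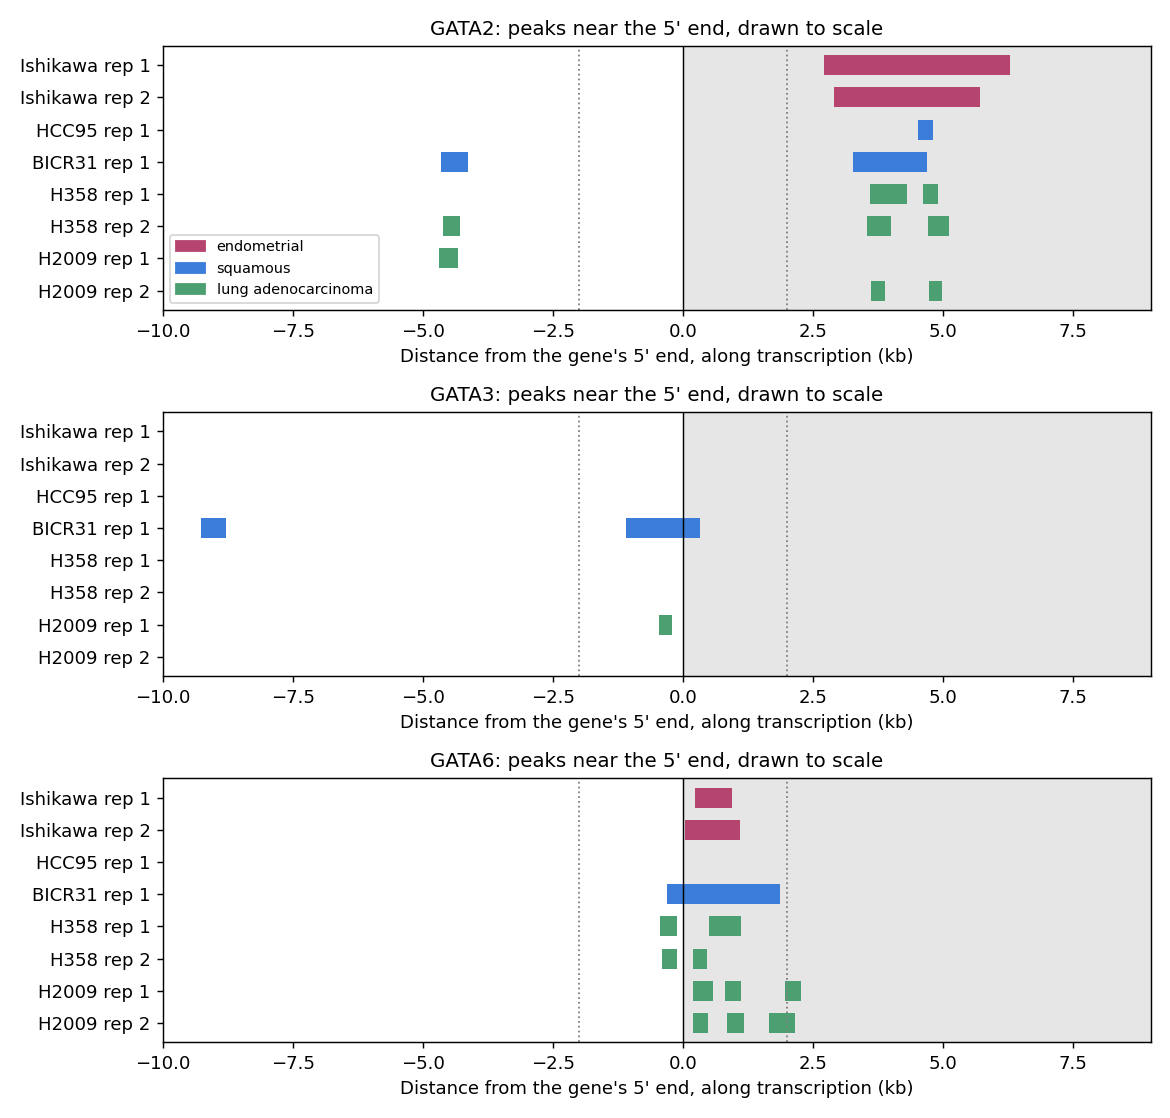
Peaks near the 5′ end of each gene in every library, drawn to scale. The x axis is the distance from the 5′ end along transcription in kb, the shaded part is the gene, dotted lines mark 2 kb on each side, and colours give the type of line. GATA2 peaks lie inside the gene from 2.71 to 6.29 kb, GATA6 peaks at the start in all libraries but HCC95, and GATA3 peaks at the start in BICR31 and H2009 replicate 1.

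The second GATA2 region lay at chr3:128150828-128152720, from 45.6 to 47.4 kb beyond the 3′ end of the gene, on the side where RefSeq places DNAJB8, a chaperone gene, as the next coding gene. It had a peak in every library but HCC95. The Ishikawa peaks had scores of 199 and 218 (percentiles 61.3 and 64.5) and the BICR31 peak a fold enrichment of 4.75 (83.1). Fold enrichments were 6.29 and 6.39 in H358 (71.3 and 73.3) and 4.91 and 7.21 in H2009 (39.0 and 88.1). In 6 of the 7 libraries this peak stood above the middle of its own list, and it was of higher percentile than the gene body peaks in BICR31, H358 replicate 1 and H2009 replicate 2, and lower in both Ishikawa libraries. Its summits in the 4 narrow lists lay between 60.3 and 60.6 kb from the 5′ end. Next to it, at chr3:128153392-128155179, Ishikawa replicate 2 alone had a wide peak of low score (1788 bp, score 65.1).

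Upstream of GATA2, a short region at chr3:128216165-128216713, about 4 kb before the 5′ end, had peaks in BICR31, H358 replicate 2 and H2009 replicate 1. Its fold enrichment was 5.63 in BICR31 (percentile 94.7), 7.34 in H358 replicate 2 (86.0) and 5.23 in H2009 replicate 1 (49.1). It was found in 1 of the 2 libraries of each lung adenocarcinoma line and in no Ishikawa or HCC95 library. The BICR31 peak had the highest value percentile of all 58 peaks, though it was only 514 bp wide. The region farther out at chr3:128303469-128303857 had a peak in both Ishikawa libraries and in no other, with scores of 60.2 and 73.9 (percentiles 10.9 and 21.3) and widths of 376 and 237 bp. It was the only region of the 22 in that class, while 5.11% of all regions were. The other 3 GATA2 regions had a peak in 1 library each, 2 of them in BICR31 and 1 in H358 replicate 2.

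GATA3 had the fewest peaks of the 3 genes. Of its 9 peaks BICR31 had 6, H2009 replicate 1 had 2 and H358 replicate 2 had 1, while both Ishikawa libraries, HCC95, H358 replicate 1 and H2009 replicate 2 had 0. A window of this length with no peak in at least 5 of the 8 libraries was common, at 26.7% of 11539 consecutive windows that held a region, and the count at GATA3 is to be read against that share.

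BICR31 was the line with the most called sequence at the GATA3 gene itself. Its promoter peak at chr10:8095569-8097004 was 1436 bp wide (width percentile 81.0) with a fold enrichment of 3.80 (percentile 49.4), and ran from 1.10 kb before to 0.337 kb after the 5′ end. H2009 replicate 1 had a 255 bp peak inside that region with a fold enrichment of 4.83 (36.6), which replicate 2 did not have. BICR31 also had a peak inside the gene, 10.7 to 11.5 kb from the 5′ end, with a fold enrichment of 3.45 (28.1). The value of the BICR31 promoter peak was thus in the middle of its list, and its width was well above it.

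The most widely found GATA3 region was distal, at chr10:8172697-8174014, from 55.5 to 56.9 kb beyond the 3′ end. BICR31 had a 1222 bp peak there (fold enrichment 3.75, percentile 46.4), H358 replicate 2 a 270 bp peak (5.63, 57.8) and H2009 replicate 1 a 274 bp peak (5.03, 42.7). As at the promoter, no lung adenocarcinoma line had it in both of its libraries. The other 3 GATA3 regions were found in BICR31 only, starting at -98.4, -9.27 and 92.2 kb from the 5′ end. The 6 RefSeq starts of GATA3 span 15.1 kb in GRCh38.p14, where the gene is 29.9 kb long against 20.5 kb as taken here, so the places of its peaks hold for the 5′ end used here and not for every start.

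At GATA6, peaks lay at the 5′ end of the gene in 7 libraries. The region at chr18:19748964-19751675 had a peak in every library but HCC95, and 13 of the 23 GATA6 peaks were in it. Ishikawa had 1 peak per library, of 713 and 1060 bp, with scores of 51.3 and 116 (percentiles 1.76 and 40.4). BICR31 had 1 of 2173 bp with a fold enrichment of 3.30 (18.6), whose width was at percentile 96.6, the highest width percentile of the 58 peaks.

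In the lung adenocarcinoma lines, the only ones with lists in the narrow form, the GATA6 start was split into several narrow peaks. Line and peak calling cannot be told apart in this split. H358 had a pair in each library, with fold enrichments of 4.81 and 4.44 in replicate 1 (percentiles 34.8 and 22.0) and of 6.62 and 5.47 in replicate 2 (76.7 and 53.7). H2009 had 3 in each library, with 5.80, 3.43 and 4.24 in replicate 1 (64.8, 2.50 and 17.0) and 4.68, 3.85 and 4.34 in replicate 2 (30.3, 8.06 and 19.8). Of the 13 promoter peaks, 3 stood above the middle of their own list by value, all of them in H358 replicate 2 or H2009 replicate 1. In both H358 libraries 1 of the peaks lay before the 5′ end, with summits at -0.197 and -0.273 kb, whereas both H2009 libraries had all 3 after it, with summits between 0.329 and 2.15 kb. The other H358 peak did not repeat in place, with summits at 0.896 kb in replicate 1 and 0.328 kb in replicate 2, in peaks that did not overlap. Only the side of the 5′ end was thus the same in the replicates of each line. This is a description of 2 lines, with no test.

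Outside the promoter, no library had a peak in the 100 kb upstream of GATA6 or inside the gene, so all 10 distal peaks were downstream. BICR31 had 5 of them, H358 replicate 2 had 2, and Ishikawa replicate 1, HCC95 and H2009 replicate 2 had 1 each. The distal region with peaks in the most libraries, chr18:19862090-19863420, lay 79.6 to 80.9 kb beyond the 3′ end. Fold enrichments there were 3.93 in HCC95 (percentile 57.3), 2.76 in BICR31 (2.62) and 5.42 in H2009 replicate 2 (54.0). This was the only GATA6 peak of HCC95, the line without a peak at the start. The region at chr18:19880588-19881408 had a peak in BICR31 and H358 replicate 2, and the other 5 distal regions in 1 library each.

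**Figure D2:**
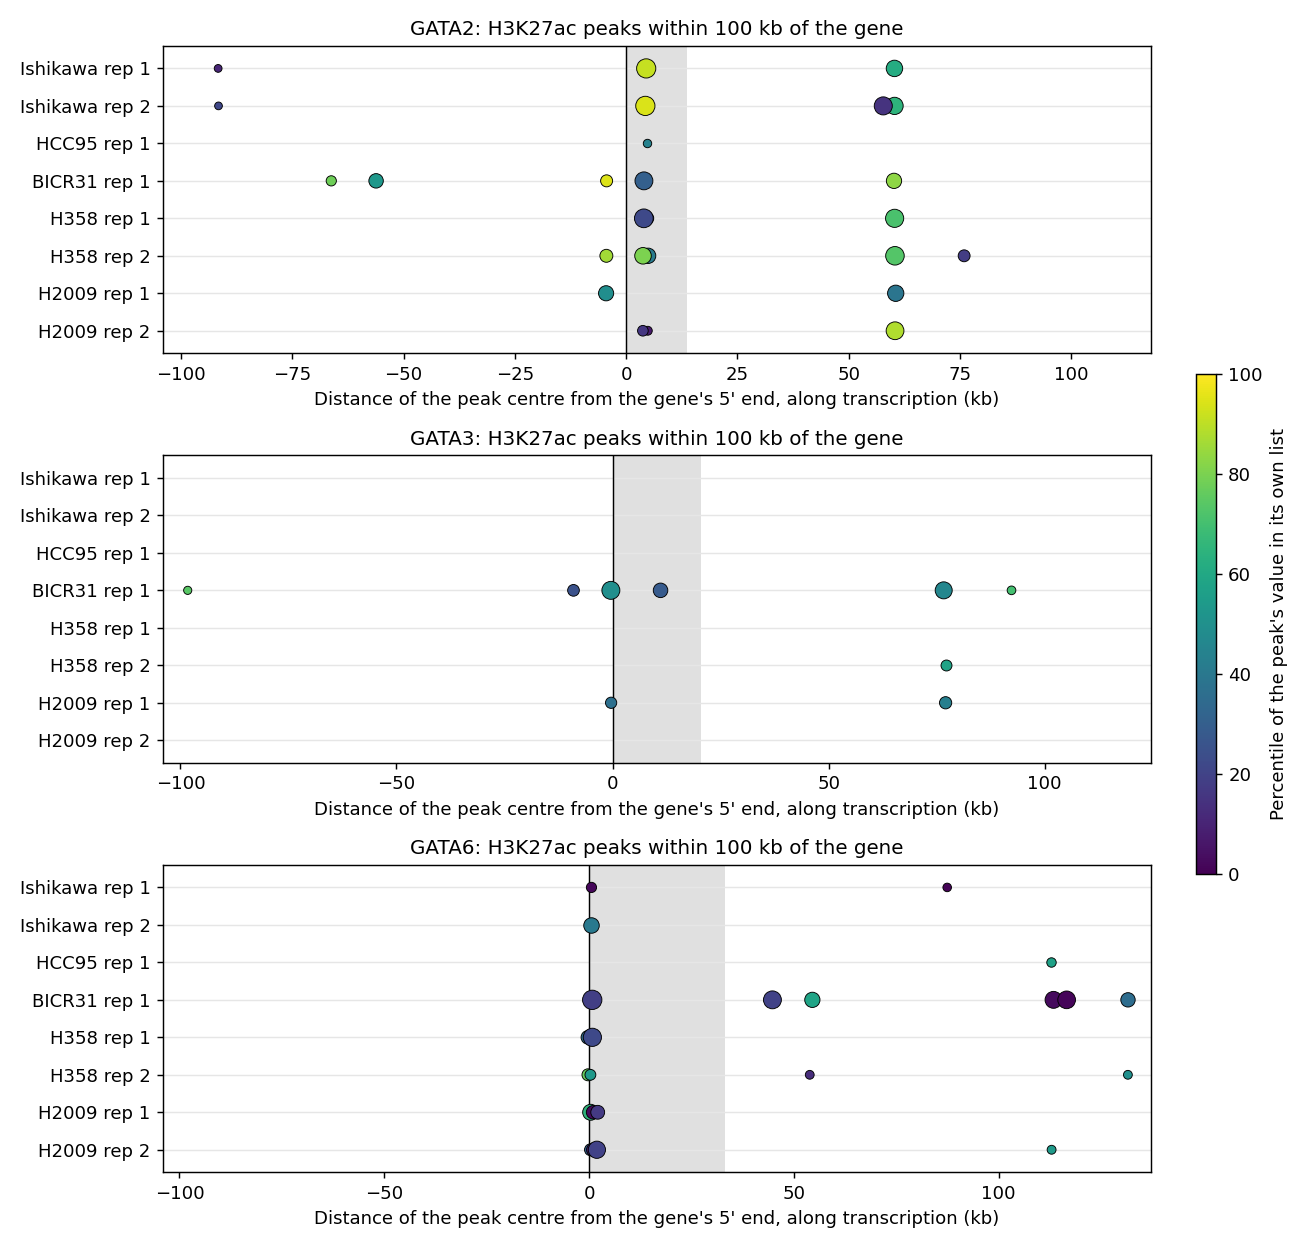
All 58 peaks by library, with the distance of the peak centre from the 5′ end in kb on the x axis and the gene shaded. Colour gives the percentile of the peak's value in its own list and marker size its width percentile; markers are not to scale and those of neighbouring peaks overlap. GATA2 shows a column of peaks near 60 kb in all libraries but HCC95, GATA3 is empty in 5 of the 8 libraries, and GATA6 has no upstream peak beyond its promoter.

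Promoter and distal peaks were set side by side by their ranks within a list, since widths and values of different list forms are not on 1 scale. Of the 58 peaks 15 were promoter peaks, 13 at GATA6 and 2 at GATA3, and 43 were distal. Median width percentiles were 39.2 for promoter and 46.1 for distal peaks, and median value percentiles 30.3 and 46.4. GATA2 had 26 of the distal peaks and no promoter peak, so place is mixed with gene here and in the differences per library. Within GATA6 the promoter and distal medians were 39.2 and 27.3 for width, and 22.0 and 27.6 for value. Within GATA3 they were 50.9 and 24.0 for width, and 43.0 and 46.4 for value. The order of widths was thus reversed within both genes. Per library, the promoter median minus the distal median averaged -2.76 ± 25.6 for width and -8.96 ± 15.4 for value (SD, n = 7; HCC95 had no promoter peak). Promoter medians were higher in 2 of the 7 libraries for each measure. Neither difference was larger than the spread between libraries (exact two-sided sign-flip permutation p = 0.797 for width and 0.172 for value, or 0.797 and 0.344 adjusted over both). Libraries of 1 line are not independent. Over 4 line means the width difference was 2.84, of the opposite sign, and the value difference -9.40 (exact permutation p = 0.875 and 0.25, where 0.125 is the smallest possible). Promoters within 5 kb take in the GATA2 gene body peaks and those just upstream of GATA2, and give HCC95 a promoter peak. With them, the differences over libraries were 6.39 and -2.51 (exact permutation p = 0.5 and 0.867).

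By type, promoter peaks had widths of 713 and 1060 bp in the endometrial line, 1436 and 2173 bp in the squamous line BICR31 (HCC95 had none) and 255 to 619 bp in the lung adenocarcinoma lines. The distal peaks ran from 237 to 3583 bp, 211 to 1416 bp and 249 to 714 bp in the same order, with medians of 1643, 834 and 308 bp. These follow the list forms, whose median widths over all peaks were 1507 and 955 bp in Ishikawa, 814 bp in HCC95, 893 bp in BICR31 and 347 to 382 bp in H358 and H2009. Since each type came in 1 list form, the type of line cannot be told apart from the peak calling. Ranked within their lists, the distal peaks had median width percentiles of 34.7 and 77.7 in the Ishikawa libraries, 46.7 in BICR31, 83.1 and 29.5 in H358, and 52.4 and 11.5 in H2009. The promoter peaks had 14.0 and 55.7 in Ishikawa, 88.8 in BICR31, 61.4 and 22.0 in H358, and 38.8 and 35.7 in H2009. The distal medians of the 2 libraries of a line lay far apart in all 3 lines with replicates.

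**Figure D3:**
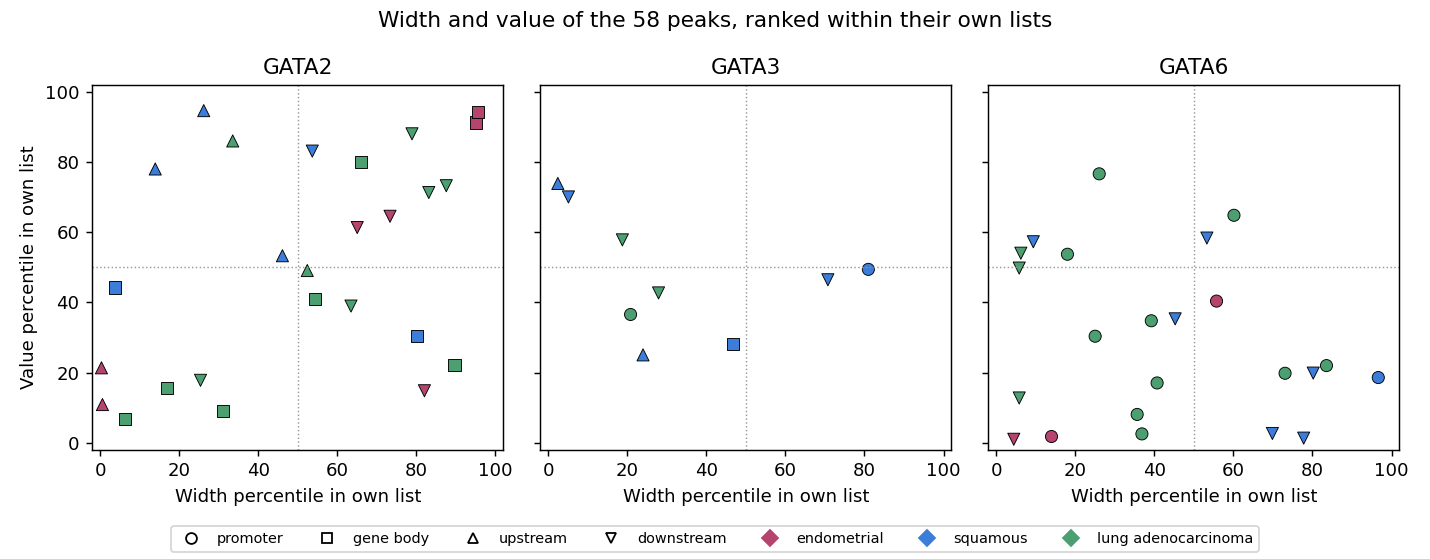
Width percentile (x axis) and value percentile (y axis) of each of the 58 peaks in its own list, by gene; shapes give the place of the peak and colours the type of line, and dotted lines mark percentile 50. The Ishikawa gene body peaks of GATA2 stand alone in the upper right corner, while GATA6 peaks gather below the middle of the value axis. Value percentiles rank a score in Ishikawa and a fold enrichment in the other lists, which are different measures.

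The called bases in the window of each gene, per Mb of called bases in the list, were compared between types. Libraries were the units, and those of the same line (Ishikawa, H358, H2009) are not independent. The SDs and p-values therefore mix the spread of replicates with that of lines. At GATA2 this share was 141 and 195 in Ishikawa, 13.6 in HCC95, 99.5 in BICR31, 138 and 180 in H358, and 70.8 and 93.3 in H2009. The Ishikawa mean of 168 ± 38.0 (SD, n = 2) and the lung adenocarcinoma mean of 121 ± 48.7 (SD, n = 4) differed by 47.5 with overlapping values (exact two-sided permutation p = 0.267). This difference was 74.4 without Ishikawa replicate 1, 20.6 without Ishikawa replicate 2 and 30.9 without H2009 replicate 1. The squamous mean was 56.6 ± 60.7 (SD, n = 2), a difference of -64.1 from lung adenocarcinoma (exact permutation p = 0.267) that was -21.2 without HCC95 and -107 without BICR31. HCC95 was the lowest of the 8 libraries and BICR31 lay within the lung adenocarcinoma range.

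At GATA3 the share was 0 in both Ishikawa libraries, 0 in HCC95, 108 in BICR31, 0 and 22.4 in H358, and 48.7 and 0 in H2009. BICR31 was above every other library, and the rest overlapped at 0. Against the lung adenocarcinoma mean of 17.8 ± 23.2 (SD, n = 4), Ishikawa was 17.8 lower (exact permutation p = 0.733). The squamous mean of 54.2 ± 76.7 (SD, n = 2) was 36.4 higher (exact permutation p = 0.533), and without BICR31 this difference was -17.8.

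At GATA6 the share was 29.6 and 32.6 in Ishikawa, 14.6 in HCC95, 195 in BICR31, 80.5 and 87.9 in H358, and 92.8 and 119 in H2009. Both Ishikawa libraries lay below all 4 lung adenocarcinoma libraries, with means of 31.1 ± 2.13 (SD, n = 2) and 95.0 ± 16.7 (SD, n = 4) and a difference of -63.9. The exact permutation p of 0.0667 was the smallest that 15 assignments allow, and 0.4 after Benjamini-Hochberg adjustment over the 6 tests of the 3 genes. GATA6 was the 1 gene of the 3 with no overlap in share between these groups. Of 11004 genome windows of its length that held a region, 19.4% showed the same order. The called bases themselves averaged 1143.5 in Ishikawa and 1093 in lung adenocarcinoma. Called totals of the lists were 41.4 and 32.5 Mb in Ishikawa and 10.9 to 12.0 Mb in lung adenocarcinoma. The type of line cannot be told apart from the list form in this difference. In the lists as deposited, HCC95 and BICR31 lay on opposite sides of lung adenocarcinoma. Their mean of 105 ± 128 (SD, n = 2) differed from the lung adenocarcinoma mean by 9.81 (exact permutation p = 0.867). Without BICR31 the difference was -80.4. With lists of equal length it was -55.8, with means of 28.5 and 84.3 (exact permutation p = 0.0667, the smallest possible). BICR31 then no longer lay above the lung adenocarcinoma mean.

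None of the 6 comparisons passed the threshold of 0.05, which 2 libraries against 4 cannot reach; adjusted p-values ran from 0.4 to 0.867. To place the levels, the genome was divided into consecutive windows as long as each gene's own, and windows holding a region were kept. Of these, fewer called bases than at GATA2 were found in 79.8% and 87.6% in Ishikawa, 27.3% in HCC95, 66.8% in BICR31, 78.1% and 85.0% in H358, and 59.5% and 67.0% in H2009. For GATA6 the values were 39.6% and 43.2% in Ishikawa, 29.6% in HCC95, 86.0% in BICR31, 61.2% and 64.1% in H358, and 64.6% and 71.8% in H2009. GATA2 thus stood above the middle window in all libraries but HCC95, and GATA6 above it in BICR31 and the lung adenocarcinoma lines but not in Ishikawa or HCC95. For GATA3 the only value above the middle was that of BICR31, at 68.9%.

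**Figure D4:**
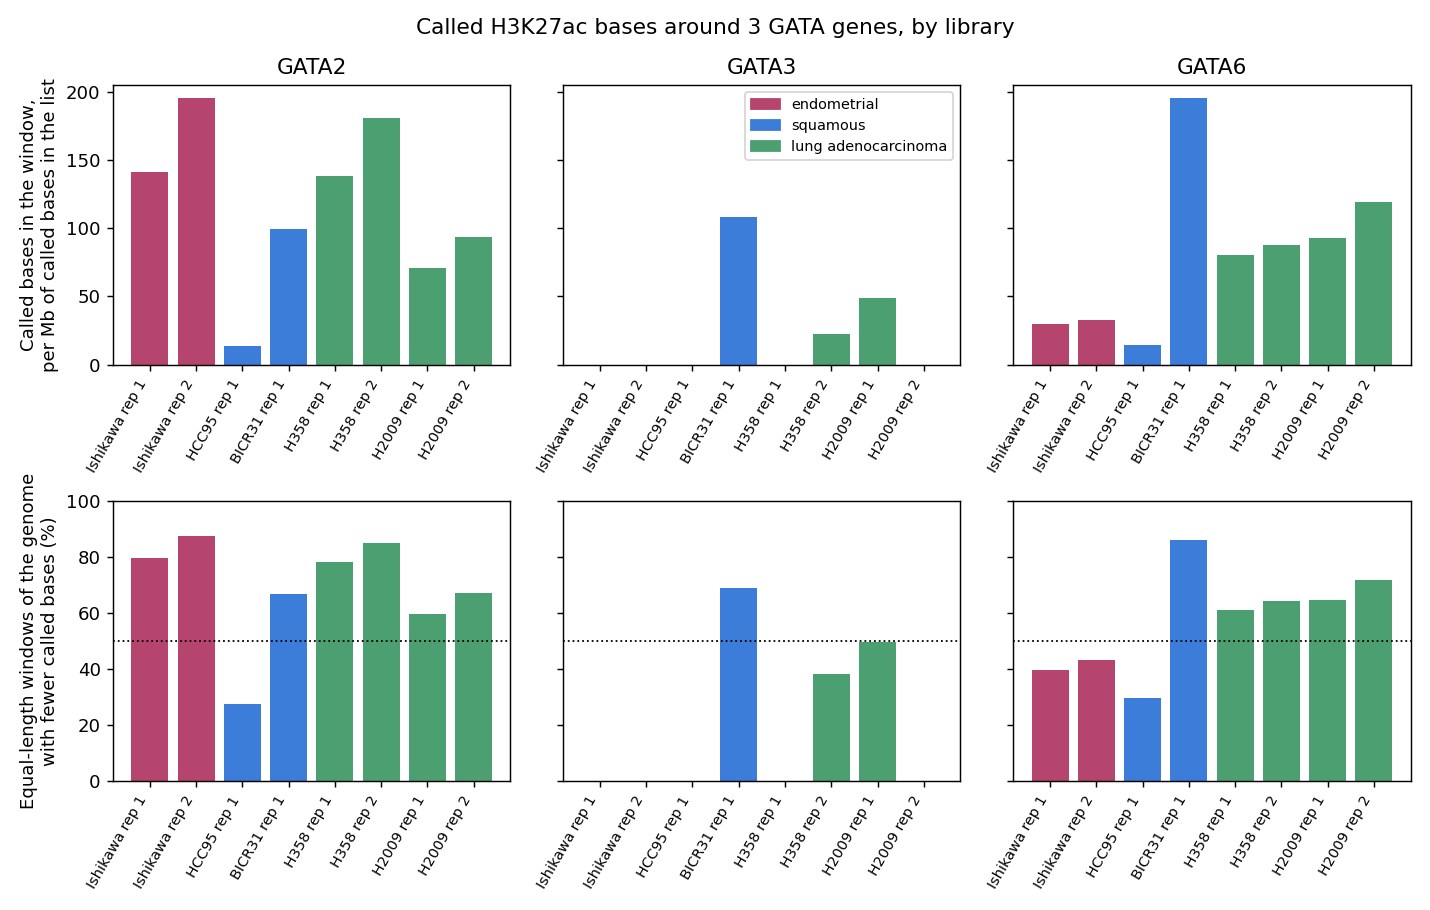
Called bases in the window of each gene per Mb of called bases in the list (upper row) and the percentage of equal-length genome windows with fewer called bases (lower row), 1 bar per library, coloured by type. BICR31 has the highest bar at GATA3 and GATA6, HCC95 the lowest at GATA2 and GATA6, and at GATA6 both Ishikawa bars lie below the 4 lung adenocarcinoma bars.

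The libraries took very different parts in the 22 regions. BICR31 had a peak in 17 of them, against 59.2% of all regions in the genome, and HCC95 in 2, against 33%. Ishikawa had 5 in each library (32.9% and 32.8% of all regions), H358 had 3 and 8 (31.1% and 30.8%), and H2009 had 5 and 4 (31.5% and 30.8%). The BICR31 list is also the longest, with 42148 peaks, and HCC95 the shortest of the 8, with 23400. HCC95 had no peak within 2 kb of the 5′ end of any of the 3 genes. At GATA2 no library had such a peak, and at GATA3 only BICR31 and H2009 replicate 1 had one. In this HCC95, a single library, thus stood apart only at the GATA6 start. Its 292 bp peak in the body of GATA2 was at width percentile 3.79.

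None of the 22 regions had a peak in all 8 libraries, a class that held 12.1% of all regions. Regions of BICR31 alone numbered 9, against 21.9% of all regions. No region was shared by HCC95 and BICR31 alone (3.56% of all) or by the 4 lung adenocarcinoma libraries alone (0.497%). The distal GATA2 region near 60 kb and the GATA6 start were 2 regions with a peak in every library but HCC95, a class chosen after the values were seen that held 0.93% of all regions. In all, 13 of the 22 were found in 1 library, against 47.7% genome-wide.

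The share of regions found in both replicates of a line was lower at the 3 genes than over the genome in all 3 lines with replicates. Of the regions with a peak in either library of a line, both had 1 in 4 of 6 for Ishikawa (74.8% over the genome), 3 of 8 for H358 (58.2%) and 2 of 7 for H2009 (56.1%). The shared ones were the gene body and 60 kb regions of GATA2, its far upstream region and the GATA6 start in Ishikawa, the gene body and 60 kb regions and the GATA6 start in H358, and the 60 kb region and the GATA6 start in H2009. These were few regions and no test was made.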

How the data were processed

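The submitters' processing notes name BWA and hg19. The version of BWA, the settings of the peak caller, the control and any pooling were not given in the sources used here. A deposited list without a header came from every sample: H358 and H2009 in the 10-column narrowPeak form, HCC95 and BICR31 in the 9-column broadPeak form, Ishikawa in 5 columns with peak names beginning with MACS. For each peak of the narrow and broad lists the authors gave a ratio (fold enrichment). They also gave −log10 of p and of q, and a score that is the whole part of 10 times −log10 q. The Ishikawa lists held 1 deposited score on a scale of their own. Summit positions, an other unit, come from the offsets that the authors deposited in the narrow lists. All are the authors' values within a list. Read depth is unknown, so the number of peaks and called bases limits what a list can show.

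Only chromosomes X and 1 to 22 were kept (556 of the 233818 deposited, or 0.238%, were left out). Percentiles rank the fold enrichment, the Ishikawa score or the width within a list, ties by mean rank. Peaks overlapping by at least 1 bp were merged over the 8 lists. Promoter, gene body, upstream and downstream were set from the gene ends, and a peak touching the 2 kb zone was promoter. Exact permutation tests used libraries as units. Regions to be named were those at a promoter, the widest of each gene, the widest found in all libraries of 1 type only, and distal ones with a peak in all 8 libraries (there were none); the other regions are given so that all 22 are accounted for, some of them singled out after their values were seen. Genes, lists and tests were chosen with earlier results of these data known. Alternatives were other flanks, promoter widths, list thresholds and lengths, a coverage rule, counts of peaks, and leaving out each library. Python 3.11.15, NumPy 2.4.6, pandas 2.3.3 and Matplotlib 3.10.9 were used, and the steps were tested on simulated data.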

Additional observations from a re-analysis of the deposited data

How the results depend on the processing

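Of the differences tested, most kept their direction. The share comparisons could not change their side of the threshold of 0.05, since 0.0667 is the smallest p that 15 assignments allow. Counts have no threshold. The GATA6 difference between Ishikawa and lung adenocarcinoma stayed negative in every alternative run, but its p was not always the smallest possible. It was -62.1 when peaks were counted (exact permutation p = 0.2) and -45.2 in the higher-ranked 50% of each list (exact permutation p = 0.267). The GATA6 difference between squamous and lung adenocarcinoma lines, 9.81 as reported, was -5.72 in the higher-ranked 50% of each list, -55.8 with equal list lengths, -28.6 with 50 kb flanks and -28.9 when peaks were counted; leaving out single libraries it ranged from -80.4 to 100.01, the extremes being without BICR31 and without HCC95. The same difference at GATA3 ranged from -17.8 without BICR31 to 90.6 without HCC95. At GATA2, Ishikawa minus lung adenocarcinoma was -2.20 with 200 kb flanks, 113 in the higher-ranked 50% and 13.5 when peaks were counted, and ranged from 20.6 to 74.4 without single libraries. Squamous minus lung adenocarcinoma there was -30.2 in the higher-ranked 50%, -145 with 200 kb flanks and -40.6 when peaks were counted, and ranged from -107 to -21.2 without single libraries. The promoter minus distal difference in width percentile was 0.896 with equal list lengths and 6.39 with promoters within 5 kb. It was -15.9 with 50 kb flanks, and ranged from -10.2 to 0.439 without single libraries. The difference in value percentile was negative in every alternative run, at -26.9 with 200 kb flanks (exact permutation p = 0.0312). It was -16.0 with equal list lengths, -15.7 with 50 kb flanks and -2.51 with promoters within 5 kb. The p with 200 kb flanks was not adjusted over the runs. The next smallest exact permutation p for value was 0.0938, without either H358 replicate. In the higher-ranked 50% the width and value differences were -25.2 and -23.0. Both rested on H358 replicate 2, the only library left there with promoter and distal peaks, and are not averages over libraries. Merged regions at GATA2, GATA3 and GATA6 numbered 5, 3 and 4 in the higher-ranked 50%, 4, 3 and 4 with 50 kb flanks, and 17 at GATA2 and 13 at GATA6 with 200 kb flanks; GATA3 had 2 to 6 without single libraries. Regions of Ishikawa alone at GATA2 were 0 in the higher-ranked 50% and with 50 kb flanks, 2 where peaks had to cover 50% of a region, and 1 to 2 without single libraries; at GATA6 they were 0 to 1. Regions in all libraries were 3 at GATA2 with 200 kb flanks and 0 to 1 at GATA2 and GATA6 without single libraries. The causes were not tested. With permutation inside the replicate number (replicate block), Ishikawa minus lung adenocarcinoma had the same differences of 47.5, -17.8 and -63.9 at GATA2, GATA3 and GATA6 with exact p of 0.222, 0.778 and 0.111, the last being the smallest 9 assignments allow. The labels do not say that the numbers pair the samples.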
